A study of Mus musculus with 9 samples.

Results

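Insulin-like growth factor 1, 2 of its receptors and its binding proteins were followed in mouse kidney RNA. The 10 genes were taken by name from a deposited table of 26139 gene symbols: the ligand Igf1, the receptors Igf1r and Igf2r, and the binding proteins Igfbp1 to Igfbp7. Values are FPKM, read fragments scaled to gene length and library total, in 9 libraries of bulk kidney RNA, 3 per group. Control kidneys came from wild-type C57/BL6 mice that were given saline by gavage, although the titles also call them untreated. IgAN kidneys came from saline-treated mice with the Itgam-IRES-hCD89 knock-in, which places the human IgA receptor CD89 under the promoter of Itgam. That promoter is active in myeloid cells, and the mice model IgA nephropathy, in which IgA is deposited in glomeruli. GQYS kidneys came from knock-in mice dosed daily with GQYS granules, a herbal preparation, for 5 months. Wild-type mice on the granules were not analysed here, and the labels state neither age nor sex.

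IGF1 is a growth hormone-dependent peptide that drives cell growth and survival through the tyrosine kinase receptor IGF1R, which signals through IRS proteins, PI3 kinase and AKT. IGF2R, the cation-independent mannose-6-phosphate receptor, carries lysosomal enzymes and removes IGF2 from the cell surface. The binding proteins hold IGFs in blood and tissue fluid and are cut by proteases that release the ligand. In the kidney IGF1 is known for raising glomerular filtration and for kidney growth. IGFBP3 is the main carrier in blood, and within the kidney its transcript is known from endothelium. IGFBP1 is a hepatic and stress-responsive binding protein under insulin and FOXO control. IGFBP7 binds IGFs weakly and is abundant in endothelium.

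Igfbp3 was the only member that passed the main test described below, and Igfbp1 did not pass it. These genes lie next to each other on chromosome 11, with 0 other protein-coding genes between them in RefSeq (GRCm38.p6). Their promoter windows, from 250 bases before to 50 bases after the transcription start, are shown because these neighbouring genes differed in their order of group means. That difference in order was not tested. Both are from RefSeq and the build GRCm38.p6, which is not the files' build, and no peak or methylation data bear on them. The Igfbp1 window is chr11:7197537-7197836 on the plus strand and the Igfbp3 window is chr11:7213874-7214173 on the minus strand. Capitals mark the letters CAAAACA, a FOXO-type motif.
Igfbp1: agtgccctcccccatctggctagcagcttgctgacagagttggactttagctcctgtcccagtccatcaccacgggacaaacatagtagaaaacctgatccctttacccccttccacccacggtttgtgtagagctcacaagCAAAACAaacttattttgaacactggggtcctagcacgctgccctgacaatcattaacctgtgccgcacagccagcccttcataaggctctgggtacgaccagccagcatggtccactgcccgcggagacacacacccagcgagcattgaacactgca
Igfbp3: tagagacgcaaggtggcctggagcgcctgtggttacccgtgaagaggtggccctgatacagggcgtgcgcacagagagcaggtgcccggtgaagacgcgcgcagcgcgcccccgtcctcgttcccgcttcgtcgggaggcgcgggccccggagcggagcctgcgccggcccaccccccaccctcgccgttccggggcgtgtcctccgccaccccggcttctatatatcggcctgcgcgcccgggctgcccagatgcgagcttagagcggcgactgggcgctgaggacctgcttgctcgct
The Igfbp1 window held 54.3% G and C and 1 CAAAACA on its own strand, starting 108 bases before the transcription start. The Igfbp3 window held 71.7% G and C and none of the 3 motifs searched, which says only that these letters are not in this window. The motifs were CAAAACA and TGTTTAC (FOXO-type) and ACGTG (HIF-type), each read on both strands. Of 32851 promoter windows of this length, 6.28% held CAAAACA, 3.65% TGTTTAC and 19.6% ACGTG. Among the other members, ACGTG occurred in windows of Igf2r, Igfbp2 and Igfbp7.

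The libraries held 30564947 to 38161564 reads assigned to genes, recovered from the steps of the deposited values. The labels do not say whether the libraries within a group are separate animals, and the p-values describe only the spread among libraries, which may be technical. Kidney markers were present throughout: the 6 proximal tubule genes summed to at least 2112 FPKM in every library. Itgam itself was low, at 0.340 to 0.716 FPKM in control, 0.172 to 0.433 in IgAN and 0.0283 to 0.143 in GQYS. IgAN replicate 1 stood apart with 43.8 FPKM of Havcr1, the tubular injury marker KIM-1, against 0.116 to 1.79 in the other 8 libraries. Control replicate 1 carried 18.6% of its reads in mitochondrially encoded genes against 7.81% to 13.3% elsewhere. Bulk values cannot tell fewer cells of a type from less RNA per cell.

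By level the family was dominated by Igfbp7. Over all 9 libraries it averaged 868 FPKM and ranked 45 of 26139 genes. Igfbp4 averaged 213 FPKM, Igfbp5 86.9 and Igfbp3 51.5. The receptors followed with 16.2 for Igf2r and 13.5 for Igf1r, then Igfbp1 with 4.06, and Igf1, Igfbp2 and Igfbp6 were under 1 FPKM on average, at 0.756, 0.593 and 0.561. The ranges over libraries did not overlap between Igfbp7 and Igfbp4, between Igfbp4 and Igfbp5, or between Igfbp3 and Igf2r. Igfbp5 lay above Igfbp3 and Igf2r above Igf1r in 9 of 9 libraries although their ranges overlapped, and Igfbp2 and Igfbp6 could not be ordered, with Igfbp2 higher in 3 of 9. FPKM is scaled to gene length, so these levels can be compared between genes.

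**Figure D1:**
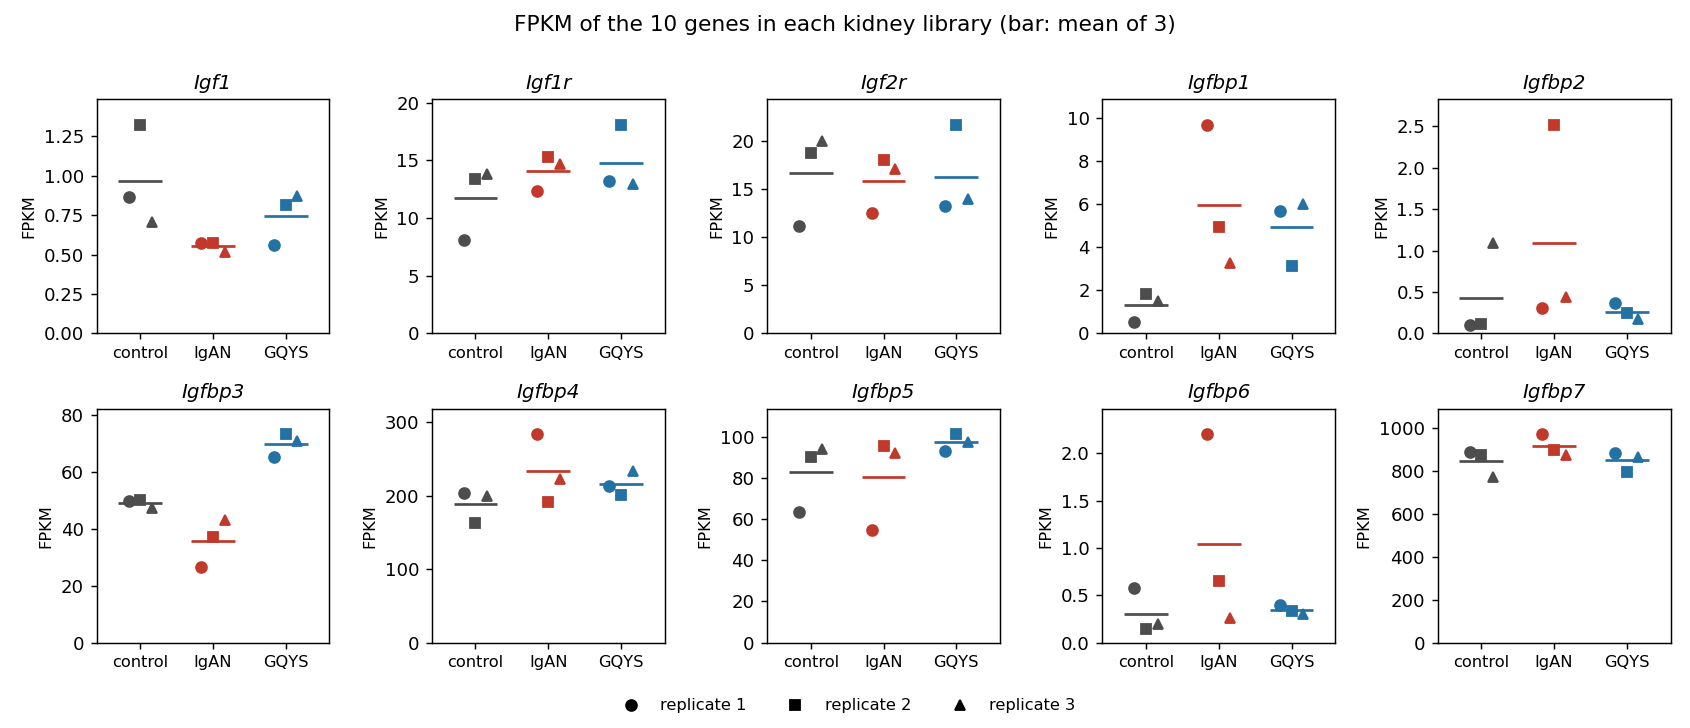
FPKM of the 10 genes in each library, with 1 panel per gene, points for the libraries of control, IgAN and GQYS, and horizontal bars for the group means of 3. Igfbp3 separates the 3 groups, and Igfbp1 separates control from both knock-in groups.

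Of the 10 members, 7 had at least 1 FPKM in at least 3 libraries and were tested among 11617 genes with limma on log2(FPKM + 1); Igf1, Igfbp2 and Igfbp6 did not pass that filter, and their estimates come from a fit of 23797 genes without it. One member was called at an adjusted p below 0.05: Igfbp3, higher in GQYS than in IgAN. In that comparison 0.198% of all tested genes were called (23 genes, of which 4, or 0.0344%, were higher). IgAN against control called 0 of the 7 members with 0.353% of all genes called, and GQYS against control called 0 of 7 with 0% of all genes called. At an unadjusted p below 0.05, the members numbered 2, 1 and 2 in IgAN against control, GQYS against IgAN and GQYS against control, beside 10.3%, 10.4% and 4.43% of all tested genes. Voom on the recovered reads called 0 members in each comparison. The median log2 difference over the 7 members was 0.12, 0.02 and 0.25, against 0.02, 0.0064 and 0.03 over all tested genes. The 3 comparisons share libraries, so their values are given side by side and were not tested against each other.

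**Figure D2:**
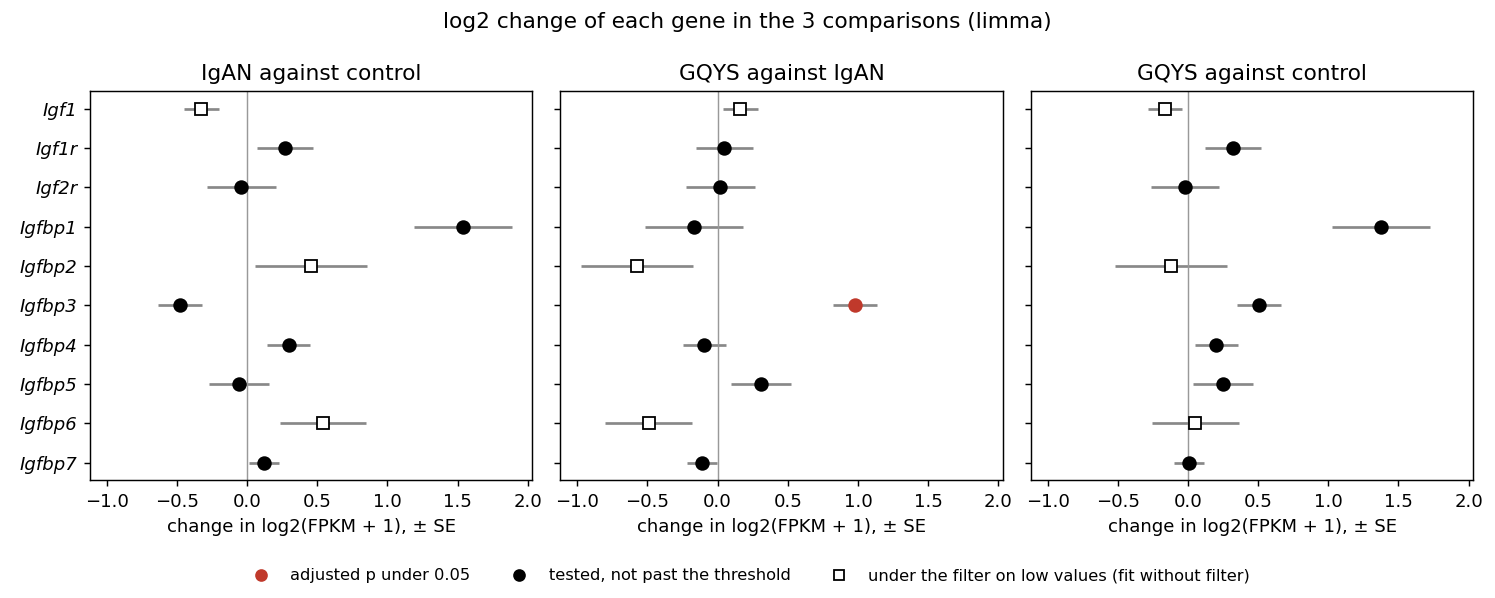
Log2 difference of each gene with its standard error, in IgAN against control, GQYS against IgAN and GQYS against control, from limma on log2(FPKM + 1). Red marks an adjusted p below 0.05, black circles are tested genes that did not pass, and open squares are the genes under the filter on low values; the 1 red point is Igfbp3 in GQYS against IgAN, at 0.98.

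Igfbp3, the main circulating IGF carrier, was lower in IgAN and highest in GQYS. The control libraries had 49.7, 50.1 and 47.3 FPKM. IgAN had 26.5, 37.2 and 43.2 FPKM, and GQYS had 65.4, 73.5 and 71.1. Every GQYS library lay above every control library, and every control library above every IgAN library. The GQYS mean of 70.0 ± 4.17 (SD, n = 3) was 1.96 times the IgAN mean of 35.6 ± 8.44, a log2 difference of 0.98 (SE 0.16, limma adjusted p = 0.0481), the 23rd smallest p of all tested genes. The adjusted p lay just inside the threshold, and the call did not hold in most other settings: voom gave 0.0584, the fit without a filter 0.122, and leaving out single libraries gave 0.0330 to 0.293. It was lost in 7 of those 9 leave-one-out fits and kept without control replicate 1 and without IgAN replicate 3. Against control, IgAN was at 0.727 times the control mean of 49.0 ± 1.54 (log2 difference -0.48, SE 0.16, adjusted p = 0.288), and -0.28 without IgAN replicate 1, the lowest library. GQYS was 1.43 times control (log2 difference 0.50, SE 0.16, adjusted p = 0.893). A 2-sided exact permutation test gave 0.1 for each of the 3 comparisons, which is the smallest p that 3 against 3 libraries can give. Ranges apart are common in this table: they occurred in 14%, 19.1% and 9.74% of tested genes in IgAN against control, GQYS against IgAN and GQYS against control.

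Endothelial markers had higher estimates with Igfbp3 in GQYS against IgAN, and went both ways in IgAN against control, where Igfbp3 was lower. The 10 endothelial markers (Pecam1, Cdh5, Kdr, Flt1, Emcn, Plvap, Ehd3, Tek, Tie1 and Egfl7) summed to 170 to 189 FPKM in control, 150 to 184 in IgAN and 210 to 217 in GQYS. All 10 had higher estimates in GQYS than in IgAN (median log2 difference 0.30), 4 had an unadjusted p below 0.05 and 0 were called. In IgAN against control, 6 of the 10 had higher estimates and 4 lower (median 0.02). The endothelial sum there was 0.965 times control, beside 0.727 for Igfbp3. None of these genes was at 0 in a group. Divided by the endothelial sum, Igfbp3 was 0.266 to 0.293 in control, 0.177 to 0.235 in IgAN and 0.301 to 0.341 in GQYS. The ranges of this ratio were apart, in the same order. Plvap, at 45.6 to 70.4 FPKM, and Emcn, at 34.4 to 46.2, were the largest parts of the sum, so the ratio weighs them most. It was not formed for other genes. The fold between GQYS and IgAN was 1.57 for this ratio, 1.96 for Igfbp3 and 1.26 for the endothelial sum. Estimates for markers of other cell types also differed between GQYS and IgAN, but only neutrophil genes were called. All 6 podocyte markers had higher estimates in GQYS, with overlapping sums of 81.8 to 102 FPKM against 62.9 to 84.8 in IgAN. All 4 smooth muscle markers had lower estimates, with sums of 42.0 to 53.0 against 71.0 to 80.7, and so did all 5 macrophage markers, with 42.1 to 48.5 against 57.6 to 84.7. None of these 15 genes was called by limma, and 2 had an unadjusted p below 0.05, both in smooth muscle. The neutrophil genes S100a8, S100a9 and Retnlg were called lower in GQYS, and the 5 neutrophil markers summed to 2.18 to 3.25 against 26.2 to 33.0. In the other lists 0 genes were called. All 3 tested tubular injury markers had lower estimates in GQYS (median log2 difference -1.71), and 1 had an unadjusted p below 0.05. The sums of the 5 listed injury markers overlapped, at 259 to 390 FPKM in GQYS against 307 to 966 in IgAN. Lower estimates were found for 6 of 7 tested mesangial and fibroblast markers and 5 of 6 of distal tubule and collecting duct. Of the proximal tubule markers, 5 of 6 had higher estimates. The part of any of these cell types in the Igfbp3 difference was not tested.

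**Figure D3:**
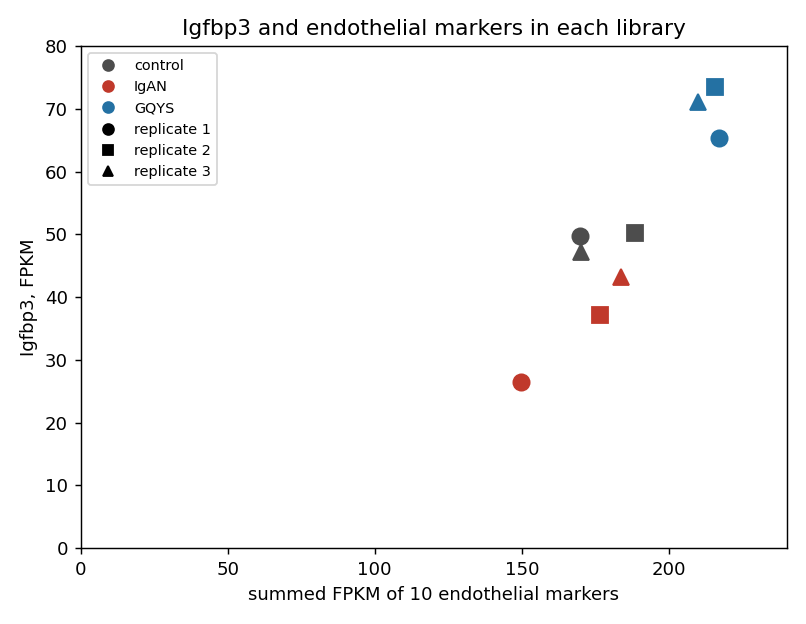
Igfbp3 in FPKM against the summed FPKM of 10 endothelial markers, 1 point per library, with colour for the group and symbol for the replicate. The GQYS libraries lie at 210 to 217 on the endothelial axis and 65.4 to 73.5 on the Igfbp3 axis, and IgAN replicate 1 is lowest on both.

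Igfbp1, the stress- and insulin-responsive binding protein, was higher in both knock-in groups than in control. The control libraries had 0.542, 1.84 and 1.51 FPKM. IgAN had 9.68, 4.94 and 3.26, and GQYS had 5.69, 3.11 and 5.98. No knock-in library overlapped a control library, while IgAN and GQYS overlapped each other. Ranges apart occurred in 14% of tested genes in IgAN against control and 9.74% in GQYS against control. The means were 1.30 ± 0.676, 5.96 ± 3.33 and 4.93 ± 1.58 (SD, n = 3 each), 4.59-fold and 3.79-fold above control. The log2 differences against control were 1.54 (SE 0.35, limma adjusted p = 0.126) for IgAN and 1.37 (SE 0.35, adjusted p = 0.678) for GQYS, so neither passed the test. GQYS against IgAN gave -0.17 (SE 0.35, adjusted p = 0.955). The pseudocount of 1 shrinks log2 differences from values as low as those of control. With a pseudocount of 0.1 the log2 differences against control were 2.12 for IgAN and 1.94 for GQYS. Voom gave 2.20 and 2.01, and neither setting called them. With library quality weights both differences against control were called, at limma adjusted p of 0.0484 for IgAN (log2 0.96) and 0.0488 for GQYS (log2 1.25). That setting called 655 and 53 of all 11617 tested genes in these comparisons, where the main fit called 41 and 0. The libraries held 29 to 450 Igfbp1 reads. The highest value came from IgAN replicate 1, the library with the high Havcr1, and the lowest from control replicate 1, and leaving out each of the 9 libraries in turn gave log2 differences of 1.18 to 1.84 in IgAN against control. Without both of these libraries it was 0.91.

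Igf1, the ligand, was scarce in kidney RNA, and its lowest group mean was in IgAN. The control libraries had 0.863, 1.33 and 0.708 FPKM. IgAN had 0.575, 0.576 and 0.515, and GQYS had 0.559, 0.812 and 0.869. Every IgAN library was below every control library, and GQYS overlapped both groups. Ranges apart occurred in 11.7% of the genes of the fit without a filter. The log2 difference of IgAN against control was -0.33 (SE 0.12, limma adjusted p = 0.468 without a filter), and GQYS against IgAN was 0.16 (SE 0.12, adjusted p = 0.775). The pseudocount of 1 shrinks log2 differences between values this low. IgAN was at 0.575 times the control mean, and the log2 difference was -0.66 with a pseudocount of 0.1 and -0.77 with voom. It was -0.20 without control replicate 2, the highest library. The libraries held 148 to 435 Igf1 reads, and the difference did not pass the test. Igf2, the other ligand, was listed at 0.217 ± 0.0209 FPKM in control, 0.287 ± 0.0519 in IgAN and 0.368 ± 0.162 in GQYS and did not pass the filter.

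Neither receptor passed the test in any comparison, and for both the groups overlapped. Igf1r had 8.07, 13.4 and 13.9 FPKM in control, 12.3, 15.3 and 14.7 in IgAN and 13.2, 18.1 and 12.9 in GQYS. Igf2r had 11.2, 18.7 and 19.998 FPKM in control, 12.5, 17.9 and 17.1 in IgAN and 13.2, 21.7 and 13.9 in GQYS. Both were lowest in control replicate 1 and highest in GQYS replicate 2. In IgAN against control, Igf1r differed by 0.27 (SE 0.20, adjusted p = 0.718), which was 0.041 without control replicate 1 and 0.041 to 0.40 over all libraries left out in turn. Igf2r differed by -0.04 (SE 0.24, adjusted p = 0.975). The 2 transcripts are long, at 12.98 and 8.94 kb as implied by reads and FPKM. Genes of at least 10 kb, 732 genes that include Igf1r but not Igf2r, had a median log2 deviation of -0.26 in control replicate 1, where the shorter genes were also low at -0.088. It was 0.16 in GQYS replicate 2, 0.15 and 0.10 in control replicates 3 and 2, and 0.095 in IgAN replicate 2. The other 4 libraries lay between -0.12 and -0.039. The part of this in the receptor values was not tested.

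The abundant binding proteins Igfbp4, Igfbp5 and Igfbp7 passed the test in no comparison. Igfbp7, an endothelial and secreted IGFBP-related protein, had 885, 874 and 769 FPKM in control, 971, 896 and 873 in IgAN and 883, 795 and 865 in GQYS. Igfbp4, an inhibitory binding protein cleaved by the protease PAPP-A, had 203, 162 and 199.8 in control, 284, 192 and 223 in IgAN and 214, 200.7 and 234 in GQYS. Igfbp5, a matrix-associated binding protein, had 63.6, 90.2 and 94.4 in control, 54.7, 95.4 and 92.1 in IgAN and 93.0, 102 and 97.5 in GQYS. The 3 groups overlapped for all 3 genes. Igfbp4 differed by 0.29 on the log2 scale in IgAN against control (SE 0.15, adjusted p = 0.576), and Igfbp5 by 0.31 in GQYS against IgAN (SE 0.21, adjusted p = 0.721). Without IgAN replicate 1 these were 0.14 and 0.053. IgAN replicate 1 had the highest Igfbp4 and Igfbp7 and the lowest Igfbp5 of all libraries.

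Igfbp2 and Igfbp6 rested on few reads. Igfbp2 had 0.0991, 0.106 and 1.09 FPKM in control, 0.304, 2.52 and 0.434 in IgAN and 0.364, 0.247 and 0.167 in GQYS, from 6 to 149 reads. Its 2 highest libraries, control replicate 3 and IgAN replicate 2, also had the highest summed urothelial markers, at 14.6 and 5.38 FPKM against 0.596 to 3.50 in the others, and the part of these markers was not tested. Igfbp6 had 0.573, 0.142 and 0.201 in control, 2.21, 0.655 and 0.255 in IgAN and 0.393, 0.329 and 0.297 in GQYS, from 7 to 87 reads, with the top value again in IgAN replicate 1. Its estimates were 0.54, -0.49 and 0.05 on the log2 scale in the 3 comparisons, and those of Igfbp2 were 0.46, -0.58 and -0.12, and 0 passed the test. Single libraries decided these sizes. Without IgAN replicate 1, Igfbp6 was at 0.16 in IgAN against control and -0.11 in GQYS against IgAN. Without IgAN replicate 2, Igfbp2 was at 0.0030 and -0.12. The pseudocount of 1 also shrinks log2 differences between values this low. Voom gave 1.43 and -1.04 for Igfbp6 and 1.67 and -1.49 for Igfbp2, again with 0 called.

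Summed over the 7 binding proteins, the level was 1165 ± 46.4 FPKM in control, 1271 ± 67.6 in IgAN and 1236 ± 54.5 in GQYS (SD, n = 3). Igfbp7 made up 67.7% to 74.1% of it in every library. By group its share was 69.1% to 74.1% in control, 70.7% to 72.9% in IgAN and 67.7% to 70.0% in GQYS. Every GQYS library thus lay below every IgAN library in Igfbp7 share, and GQYS overlapped control. Igfbp3 made up 4.13% to 4.26% in control, 1.97% to 3.49% in IgAN and 5.18% to 6.26% in GQYS, with no overlap between groups. FPKM ranges were apart in 14% of tested genes in IgAN against control. They were apart in 19.1% in GQYS against IgAN and 9.74% in GQYS against control. Igfbp4 made up 13.8% to 21.1% and Igfbp5 4.06% to 8.65%, with overlapping groups.

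**Figure D4:**
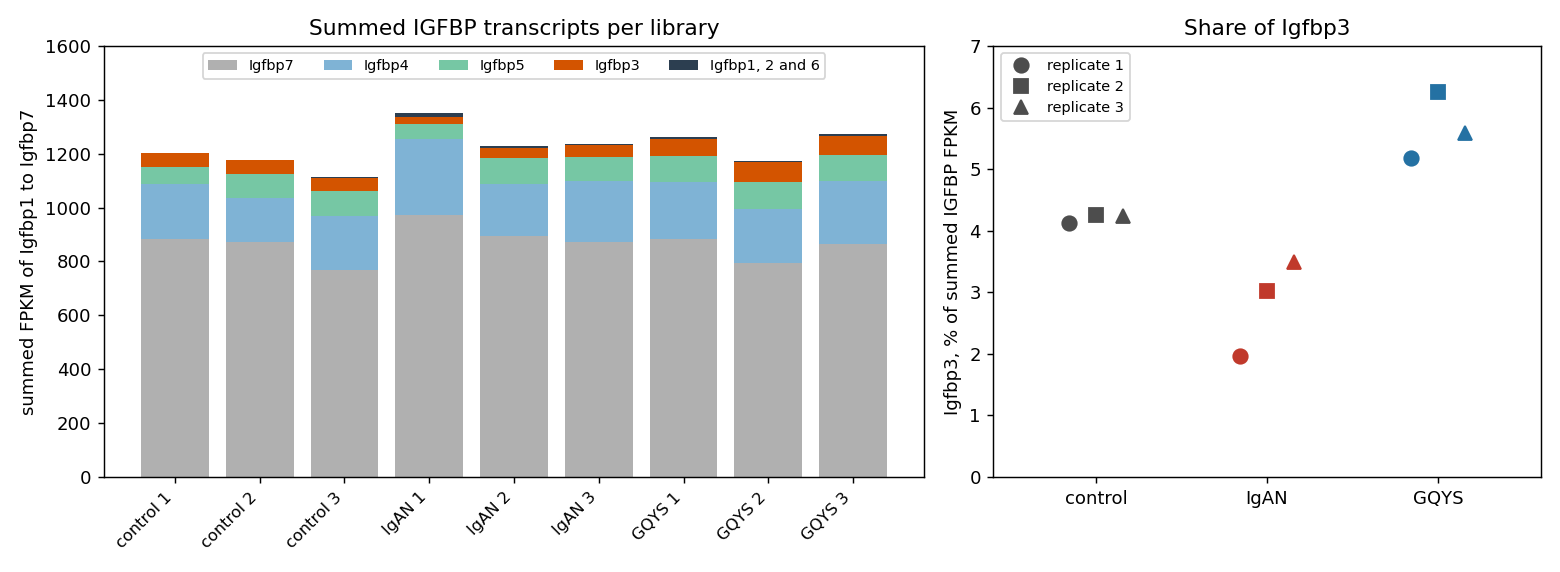
Left, stacked bars of the summed FPKM of Igfbp1 to Igfbp7 in each library; right, Igfbp3 as a percentage of that sum, 1 point per library. Igfbp7 takes 67.7% to 74.1% in every library, and Igfbp3 takes 5.18% to 6.26% in GQYS against 1.97% to 3.49% in IgAN.

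Likeness to other tested genes was measured as the Euclidean distance between log2(FPKM + 1) values, standardised over the 9 libraries. The 5 nearest named genes to Igfbp3 were Zfp81, Hcar1, Agtr1a, Cdc42ep3 and Fbln5, at distances of 0.763 to 0.986. Agtr1a, an angiotensin II receptor, had 18.4 ± 0.454 FPKM in control, 15.9 ± 2.44 in IgAN and 22.7 ± 1.30 in GQYS. Fbln5, an elastic fibre protein, had 19.5 ± 0.730, 12.98 ± 3.57 and 22.2 ± 0.482. The nearest to Igfbp1 were Art3, Sesn2, Vps51, Zfp777 and B3gnt7, at 0.904 to 1.17, and Sesn2, a stress-induced sestrin, had 11.4 ± 4.06, 22.0 ± 4.81 and 22.1 ± 6.09 FPKM. Depp1, Angptl4 and Tcf21 were looked up by name, outside the rule of the 5 nearest named genes. Depp1, a FOXO-responsive gene, lay at 1.29 from Igfbp1, with 0.103% of tested genes closer. It had 2.24 to 3.44 FPKM in control, 21.5 to 26.5 in IgAN and 8.28 to 15.6 in GQYS. Angptl4 lay at 1.93 from Igfbp1 with 1.56% closer, and Tcf21 at 5.11 with 98.8% closer. The part of FOXO in these patterns was not tested. Within the family the nearest to Igfbp3 was Igfbp5 at 2.34, with 5.85% of tested genes closer. Genes chosen for closeness are a description of these libraries.

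The wider IGF pathway was read from 64 genes listed with earlier results of these data known, of which 63 were in the table and 51 tested, in 5 lists. By limma as described above and by voom, 0 were called in each comparison, while other limma settings called some. Quality weights called 5 in IgAN against control and 2 in GQYS against IgAN, beside 655 and 404 of all 11617 tested genes. The mitochondrial share as a covariate called 3 and 1, beside 636 and 308 of all tested genes. In GQYS against IgAN, 1 was also called without control replicate 1, beside 54 of all tested genes. Without both first libraries of control and IgAN, 1 was called beside 63. The lowest adjusted p was 0.144 in IgAN against control, 0.0968 in GQYS against IgAN and 0.863 in GQYS against control. At an unadjusted p below 0.05, 6, 4 and 3 genes passed (11.8%, 7.84% and 5.88%), beside 10.3%, 10.4% and 4.43% of all tested genes. The median log2 difference of the 51 tested pathway genes was 0.06, -0.04 and 0.05. Of the proteases, inhibitors and carriers, 5 of 8 were tested, and Stc1, a stanniocalcin that inhibits PAPP-A, had 0.858 ± 0.0446 FPKM in control, 2.66 ± 0.991 in IgAN and 1.001 ± 0.497 in GQYS (limma adjusted p = 0.144 in IgAN against control and 0.191 in GQYS against IgAN). Igfals, the acid-labile subunit that carries IGFBP3, had 3.16 ± 0.478, 3.47 ± 0.666 and 4.66 ± 0.839. Of the growth hormone axis all 6 were tested, and Ghr, the growth hormone receptor, had means of 157, 155 and 149 FPKM. Socs2 had the smallest p of the 6 in each comparison, with 0.769 ± 0.317, 1.86 ± 1.04 and 1.33 ± 0.750 FPKM. Its log2 difference in IgAN against control was 0.64 (SE 0.31, limma adjusted p = 0.544). Of the receptor signalling genes 35 of 37 were tested; Eif4ebp1, a translation repressor, had 8.94 ± 0.506, 14.1 ± 4.43 and 10.2 ± 0.454, and Foxo3 had 8.49 ± 1.63, 12.6 ± 2.41 and 10.1 ± 1.20. Esm1, an endothelial protein with an IGFBP-type domain, had 15.997 ± 2.58, 12.8 ± 1.23 and 23.8 ± 4.39 FPKM, the pathway gene nearest the threshold in GQYS against IgAN (log2 difference 0.83, SE 0.16, adjusted p = 0.0968). Of the IGF2 mRNA-binding proteins 1 of 3 was tested, Igf2bp2, at 1.39 ± 0.253, 2.59 ± 0.777 and 1.74 ± 0.515.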

How the data were processed

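Bulk kidney RNA, extracted in TRIzol and made into libraries with VAHTS Universal V6 reagents (per the labels' protocols), was deposited by the authors as 1 table of FPKM values for 9 libraries. GRCm39, R 3.2.0, HISAT2, fastp, DESeq2 and HTSeq are listed in the submitters' processing notes with no roles. Annotation and strand setting: not given in the sources used here; therefore overlapping antisense genes cannot be told apart. Whole reads were recovered for all 26139 genes, as the smallest read numbers that keep the ratios between scaled libraries within 0.03 reads. Genes above 0 in a single library or in none resolve by construction. Those above 0 in only a few libraries can also resolve by coincidence, since many read numbers were tried. The 16558 genes above 0 in all 9 libraries were also resolved. Genes reaching 1 FPKM in 3 or more libraries entered limma 3.58.1 (R 4.3.3, mean-variance trend, all 9 libraries, log2 with pseudocount 1), with Benjamini-Hochberg adjustment over 11617 genes and a threshold of 0.05, tested on simulated data. All 10 members are described. The members, the pathway and marker lists and the rule for like genes were chosen with earlier results of these data known. Promoter windows come from RefSeq (GRCm38.p6). Figures were drawn with matplotlib 3.10.9 under Python 3.11.15.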

Additional observations from a re-analysis of the deposited data

How the results depend on the processing

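Counts of genes called depended on the setting. IgAN against control called 41, and 21 without a filter, 11 with only the 2 groups, 655 under quality weights for libraries, and 636 after adding the mitochondrial FPKM share to the model, and 68 under the replicate block. GQYS against IgAN called 23, and 13 without a filter, 15 with pseudocount 0.1, 43 with only the 2 groups, 404 under quality weights, 308 after adding the mitochondrial share, and 63 without control and IgAN replicate 1. GQYS against control called 0, and 53 with quality weights. Leaving out each library gave 14 to 65, 6 to 54 and 0 to 1. Voom, added after seeing the data, called 33, 16 and 0; the planned count model was not run, since the deposited values are FPKM.

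Same-numbered libraries correlated from -0.36 to 0.58 in their deviations from group means, and differently numbered libraries from -0.63 to 0.53. These values do not settle whether the numbers pair the libraries. With a replicate block the counts were 68, 26 and 0. Igfbp3 in GQYS against IgAN then had a limma adjusted p of 0.0306, with 1 pathway gene called there. Of 531 alternatives for the members, 483 kept direction and call, 12 lost the Igfbp3 call, 2 gained an Igfbp1 call and 34 reversed, all with an adjusted p of at least 0.590. The Igfbp3 call was lost without a filter (0.122), with pseudocount 0.1 (0.0564), quantile scaling (0.0531), 2 groups (0.0563) and voom (0.0584), and kept with quality weights (0.00639), the mitochondrial covariate (0.0281) and without both first libraries (0.0153). Its log2 difference was 0.79 to 1.13 with each library left out.

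Reversals under quality weights in GQYS against IgAN were Igf1r -0.081, Igf2r -0.18, Igfbp1 0.28 and Igfbp4 0.00078; with the mitochondrial covariate Igf1r in IgAN against control was -0.0030; with voom Igfbp2 in GQYS against control was 0.18. Without both first libraries they were Igfbp5 0.022 in IgAN against control, and Igf1r -0.038, Igf2r -0.13, Igfbp1 0.20 and Igfbp4 0.058 in GQYS against IgAN. Leaving out each library, the ranges in IgAN against control were -0.29 to 0.11 for Igf2r and -0.23 to 0.20 for Igfbp5. In GQYS against IgAN they were -0.10 to 0.13 for Igf1r, -0.19 to 0.14 for Igf2r, -0.47 to 0.20 for Igfbp1 and -0.22 to 0.058 for Igfbp4. In GQYS against control they were -0.27 to 0.12 for Igf2r, -0.28 to 0.19 for Igfbp2, -0.037 to 0.19 for Igfbp6 and -0.054 to 0.056 for Igfbp7. The cause of these shifts was not tested. Depth limits Igfbp2, Igfbp6, Igfbp1 and Igf1, with 6 to 149, 7 to 87, 29 to 450 and 148 to 435 reads per library.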
